A study of Mus musculus with 18 samples.

Results

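The methionine cycle and one-carbon enzymes examined here were 9 genes of mouse liver, *Mat1a*, *Mat2a*, *Gnmt*, *Pemt*, *Ahcy*, *Bhmt*, *Bhmt2*, *Cbs* and *Cth*, out of 15052 genes listed. They were chosen by name, and all 9 had a row. RNA came from whole liver of 18 C57BL/6J mice aged 10 to 12 weeks: pair-fed wild type (WT, 4 mice) and *Apoe* knockout (KO, 5 mice), and EtOH-fed WT (5 mice) and *Apoe* KO (4 mice). After 5 days of acclimation, EtOH-fed mice took a liquid diet with 5% ethanol for 10 days and a gavage of 5 g/kg ethanol on day 11. Pair-fed mice took an isocaloric diet and a gavage of 9 g/kg dextrin maltose, and livers were taken 9 h after the gavage. The *Apoe* KO strain is not limited to one cell type, so the comparisons do not separate hepatocytes from other liver cells. Both strains were bought from a supplier.

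Methionine adenosyltransferases turn methionine into S-adenosylmethionine, the methyl donor of the cell. Methyltransferases use it up and leave S-adenosylhomocysteine, which is cleaved to homocysteine. Homocysteine is then either methylated back to methionine, with betaine or a folate as the methyl source, or passed through transsulfuration to cysteine and glutathione. The liver carries most of this traffic, and the cycle is a classical subject of alcohol research because ethanol feeding can disturb it.

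Across both genotypes, the ethanol regimen was accompanied by higher transcripts of the liver methionine adenosyltransferase *Mat1a* and of the betaine-using methyltransferase *Bhmt*. *Mat1a* was 1.60-fold higher in WT and 1.53-fold higher in KO mice, and *Bhmt* 1.88-fold and 2.30-fold. In WT mice the transsulfuration enzymes *Cth* and *Cbs* and the glycine methyltransferase *Gnmt* rose as well, by 2.20-fold, 1.48-fold and 1.74-fold. The WT call of *Bhmt* held in 2 of the 9 fits that left out 1 mouse, and that of *Cbs* in 6. The KO call of *Mat1a* was lost under another scaling. In WT mice library depth was mixed with diet, and the pair cannot be told apart. Between *Apoe* KO and WT mice on the same diet, 0 of the 9 enzymes passed the test. *Bhmt2*, *Ahcy* and *Pemt* passed it in no comparison.

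Of the series as a whole, the values were read counts that the authors had scaled to totals between 32267493 and 32292618 per mouse and rounded, called units here. In 11 libraries the low values were evenly spaced, with 1.11 to 5.75 units per read, the mark of a shallower library. These 11 thus also differed in depth among themselves. The other 7 used every small whole number and were deeper. They were pair-fed KO mice 2 and 5, EtOH-fed WT mice 1, 2, 3 and 5, and EtOH-fed KO mouse 1, so that depth and group were unevenly mixed. *Apoe* was lower in KO than in WT mice by a log2 fold change of −4.82 in pair-fed and −4.21 in EtOH-fed livers (adjusted p = 0.000502 and 0.000142, limma). It was not absent: the 3 deeper KO libraries held 8586, 11504 and 12041 units and the other 6 held 27229 to 108651, and whether reads of other libraries entered these was not tested. All mice are labelled female, but EtOH-fed KO mouse 1 had 826 units of *Xist* against 15227 to 30379 in the other 17, and 1077 units of the Y-linked *Ddx3y* against 2 to 118. Values of the enzymes in EtOH-fed KO mice are given with and without that mouse where a result turns on them, and changed calls of other named genes are stated. The hepatocyte marker *Alb*, albumin, lay between 1547096 and 3032672 units in those 17 mice and at 1567718 in that mouse. Of 3 sex markers with a row, 2 were called lower and 0 higher in EtOH-fed than in pair-fed WT mice (median log2 fold change −1.84). Of all genes 12.7% were called in that comparison, and the cause was not tested.

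The promoters of the enzymes are shown because several of these genes rose together under ethanol. RefSeq windows (GRCm38.p6) were at hand for 7 of the 9 genes, not for *Mat1a* and *Cth*, and 4 genes are printed, 3 that rose and *Bhmt2*, the neighbour of *Bhmt* that did not pass the test. Each run is on the minus strand, 5′ to 3′, ends where the annotated gene begins, and leaves out window bases inside that gene. Capitals mark a match to one of 6 motifs searched on both strands of the 250 bases before the RefSeq start.
Bhmt, chr13:93637962-93638008: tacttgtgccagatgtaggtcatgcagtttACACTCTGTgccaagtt
Bhmt2, chr13:93674303-93674552: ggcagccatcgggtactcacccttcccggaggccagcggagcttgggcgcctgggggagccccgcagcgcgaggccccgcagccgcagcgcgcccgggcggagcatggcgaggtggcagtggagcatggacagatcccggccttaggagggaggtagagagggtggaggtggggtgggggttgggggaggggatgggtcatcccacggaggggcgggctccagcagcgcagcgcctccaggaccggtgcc
Cbs, chr17:31637239-31637455: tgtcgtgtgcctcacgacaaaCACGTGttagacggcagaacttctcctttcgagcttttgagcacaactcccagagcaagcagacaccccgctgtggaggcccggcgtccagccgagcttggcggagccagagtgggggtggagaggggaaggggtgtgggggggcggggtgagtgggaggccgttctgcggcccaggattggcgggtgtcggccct
Gnmt, chr17:46729169-46729415: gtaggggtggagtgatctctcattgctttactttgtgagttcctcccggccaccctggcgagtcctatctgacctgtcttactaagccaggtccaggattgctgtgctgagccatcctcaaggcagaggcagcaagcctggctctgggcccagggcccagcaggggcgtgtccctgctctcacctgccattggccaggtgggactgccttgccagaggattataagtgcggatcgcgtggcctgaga

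The capitals in *Bhmt* match ACANNNTGT, a core of the glucocorticoid receptor element. It lies 220 bases before the RefSeq start, from which all distances here are counted, and that start is 203 bases inside the annotated gene. This motif is in 5.84% of the 32851 windows of all genes. The capitals in *Cbs* match the E-box CACGTG, 229 bases before a RefSeq start that is 33 bases inside the annotated gene, and 6.02% of windows hold it. *Mat2a* has the TATA box TATAAA 32 bases before its RefSeq start, and 12.4% of windows have one. The ATF4/CHOP composite TGATGNAA, the cyclic AMP element TGACGTCA and the C/EBP core TTGCNNAA had no match in the 7 genes, against 3.45%, 1.55% and 9.56% of all windows. *Bhmt* and *Bhmt2* lie 36.5 kb apart from start to start on the same strand, while their windows differ in the letters found.

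Levels can be set beside each other only per length, here as mean units per kb of exon over the 18 mice. The length is that of all annotated exons of a gene merged, from 1206 bases for *Gnmt* to 7485 for *Cbs*. It can exceed that of the transcripts present, and the order depends on it. *Mat1a* (42654) and *Gnmt* (41601) stood highest, followed by *Ahcy* (15301), *Bhmt* (12488) and *Pemt* (5328). *Cth* (2581), *Bhmt2* (2539), *Mat2a* (1199) and *Cbs* (918) were lowest. The lowest value of any enzyme in any mouse was 3122 units, for *Cth*, and in the shallowest library 1 read stood for 5.75 units.

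**Figure D1:**
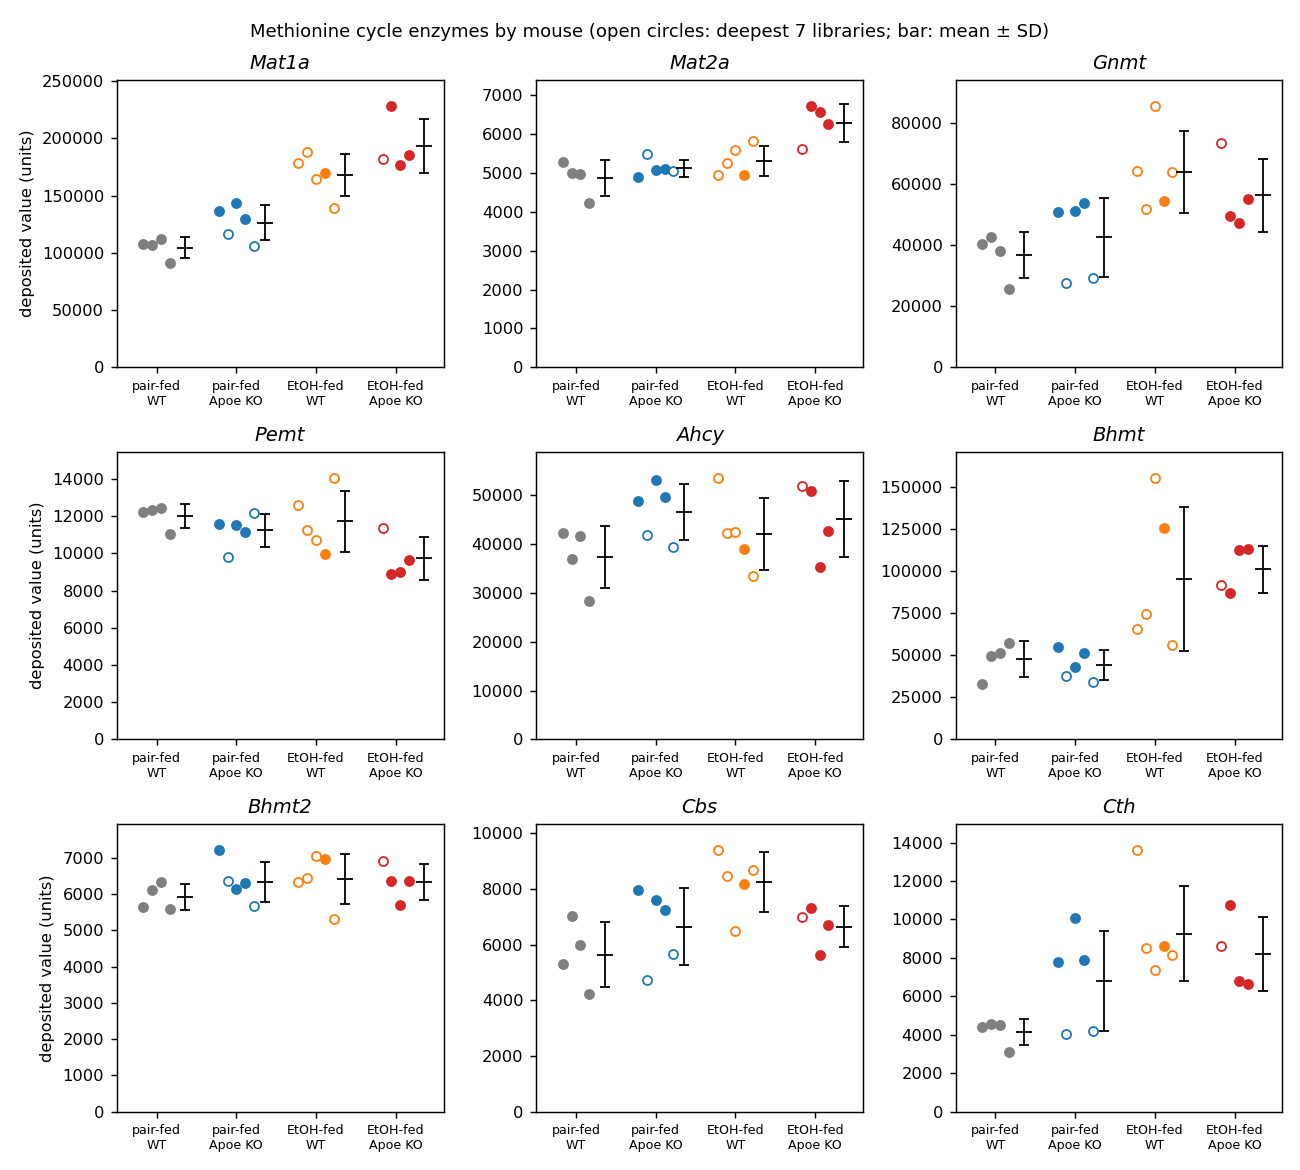
Deposited value of each of the 9 enzymes in units (linear axis from 0) for every mouse of the 4 groups, with the group mean ± SD beside it; open circles are the 7 deeper libraries. *Mat1a* lies above all pair-fed mice of the same genotype in both EtOH-fed groups, and pair-fed *Apoe* KO mice 2 and 5 lie below the other 3 of their group for *Gnmt* and *Cth*.

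S-adenosylmethionine synthesis was followed first. *Mat1a*, which encodes the liver-type methionine adenosyltransferase (ENSMUSG00000037798, chr14:41105035-41124412, GRCm38, plus strand), had 107415, 106948, 112455 and 91370 units in pair-fed WT mice 1 to 4. EtOH-fed WT mice 1 to 5 had 178832, 188253, 164094, 169516 and 138947 units. Every EtOH-fed WT mouse lay above every pair-fed WT mouse, and the log2 fold change was 0.68 (SE 0.15, adjusted p = 0.0109). In pair-fed *Apoe* KO mice 1 to 5 *Mat1a* stood at 136841, 116217, 143195, 129719 and 105880 units. EtOH-fed *Apoe* KO mice 1, 2, 4 and 5 had 181925, 228329, 177117 and 185552 units. Here too the groups did not overlap, and *Mat1a* rose by a log2 fold change of 0.61 (SE 0.14, adjusted p = 0.0076). Without EtOH-fed KO mouse 1 the value was 0.64 (adjusted p = 0.0102). With median-of-ratios size factors in place of the deposited scaling, the call in KO mice was lost (0.49, adjusted p = 0.0623), while that in WT mice was kept (0.70, adjusted p = 0.0203).

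That dependence had a measured counterpart in all genes. The median log2 fold change of the 15052 genes under ethanol was 0.126 in *Apoe* KO mice and −0.0112 in WT mice, and under median-of-ratios scaling −6.81e-05 and 0.00829. Relative to the median of all genes, *Mat1a* was higher by 0.49 and *Bhmt* by 1.08 in EtOH-fed KO mice.

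*Mat2a* encodes the catalytic subunit of the more widely expressed methionine adenosyltransferase (ENSMUSG00000053907, chr6:72432799-72439558, minus strand). Its row overlaps the antisense gene *Particl*, and whether counting used strand is not stated, so reads of the pair cannot be told apart. *Mat2a* had 5284, 5009, 4986 and 4219 units in pair-fed WT and 4952, 5257, 5591, 4959 and 5811 units in EtOH-fed WT mice. These ranges overlapped, with a log2 fold change of 0.13 (95% interval −0.09 to 0.34). In pair-fed *Apoe* KO mice it had 4891, 5476, 5084, 5111 and 5047 units, and in EtOH-fed KO mice 5614, 6727, 6558 and 6252 units. The 4 EtOH-fed KO values lay above all 5 pair-fed ones, and *Mat2a* rose by 0.29 (SE 0.08, adjusted p = 0.0205). Without EtOH-fed KO mouse 1 it rose by 0.35 (adjusted p = 0.0107), and the call was lost in 3 of the 9 fits that left out 1 mouse (adjusted p up to 0.0541). Relative to the median of all genes the difference was 0.17, and with median-of-ratios scaling it did not pass (0.17, adjusted p = 0.207).

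The ratio of *Mat1a* to *Mat2a* within a mouse does not depend on any scaling. On the log2 scale it averaged 4.42 ± 0.06 (SD, n = 4) in pair-fed WT and 4.98 ± 0.25 (n = 5) in EtOH-fed WT mice. Every EtOH-fed WT mouse lay above every pair-fed WT mouse, with a difference of 0.55 on the log2 scale. The exact two-sided permutation test gave p = 0.0159, the smallest this design allows, and 0.0635 after adjustment over 8 ratio tests. In *Apoe* KO mice the ratio was 4.62 ± 0.21 (n = 5) without and 4.94 ± 0.15 (n = 4) with ethanol (exact permutation p = 0.0476, adjusted 0.127). Without EtOH-fed KO mouse 1 the difference went from 0.32 to 0.29 (adjusted 0.286, exact permutation). The ratio therefore did not pass the adjusted threshold in either genotype. In WT mice even complete separation of the groups gave only 0.0635 after adjustment, so the adjusted test could not decide there.

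Use of the methyl group came next. *Gnmt* encodes glycine N-methyltransferase, an abundant liver enzyme that disposes of S-adenosylmethionine (ENSMUSG00000002769, chr17:46725664-46729168, minus strand). Pair-fed WT mice 1 to 4 had 40209, 42753, 38167 and 25693 units, and EtOH-fed WT mice 1 to 5 had 64016, 51738, 85472, 54206 and 63707 units. The groups did not overlap, and *Gnmt* rose by 0.80 on the log2 scale (SE 0.18, adjusted p = 0.012). The 5 pair-fed *Apoe* KO mice had 50915, 27694, 50966, 53739 and 29076 units. The EtOH-fed KO mice had 73254, 49334, 47182 and 54945 units, and the ranges overlapped (log2 fold change 0.44, 95% interval −0.02 to 0.90, adjusted p = 0.156). Without EtOH-fed KO mouse 1, the highest of them, the value was 0.31 (adjusted p = 0.347). Within the pair-fed KO group, mice 2 and 5 stood far below mice 1, 3 and 4.

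*Pemt*, which encodes the phosphatidylethanolamine methyltransferase and supplies phosphatidylcholine in liver (ENSMUSG00000000301, chr11:59970614-60046489, minus strand), was the enzyme nearest to a decrease. It ranged from 11034 to 12460 units in pair-fed WT, 9792 to 12173 in pair-fed KO, 9955 to 14050 in EtOH-fed WT and 8908 to 11389 in EtOH-fed KO mice. In KO mice the log2 fold change under ethanol was −0.21 (95% interval −0.42 to 0.00, adjusted p = 0.143). It passed the test as lower in 3 alternatives: with median-of-ratios scaling (−0.34, adjusted p = 0.0408), without EtOH-fed KO mouse 1 (−0.29, adjusted p = 0.0445) and without the deeper libraries (−0.31, adjusted p = 0.0308). In WT mice it was −0.04 (95% interval −0.29 to 0.20).

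*Ahcy* encodes S-adenosylhomocysteine hydrolase, which clears the product of methylation (ENSMUSG00000027597, chr2:155059310-155074497, minus strand). It ranged from 28394 to 42336 units in pair-fed WT, 39307 to 53056 in pair-fed KO, 33433 to 53461 in EtOH-fed WT and 35187 to 51922 in EtOH-fed KO mice. The log2 fold change under ethanol was 0.17 in WT (95% interval −0.17 to 0.52) and −0.05 in KO mice (−0.34 to 0.24, and −0.12 without EtOH-fed KO mouse 1), and none passed the test. Its most similar gene across the 18 mice was *Ahcyl* (ENSMUSG00000048087, Pearson r = 0.92), whose symbol marks it as *Ahcy*-like, and reads shared by the pair could have been split between them.

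Homocysteine is methylated back to methionine by betaine-homocysteine methyltransferase, the product of *Bhmt* (ENSMUSG00000074768, chr13:93616675-93637961, minus strand). An unnamed antisense gene, ENSMUSG00000085834, overlaps *Bhmt*, and reads of the pair cannot be told apart. Pair-fed WT mice 1 to 4 had 33001, 49411, 51657 and 57365 units, and EtOH-fed WT mice 1 to 5 had 65550, 74561, 155330, 125457 and 56129 units. Mice 3 and 4 stood far above the other 3, while mouse 5 fell within the pair-fed range. *Bhmt* rose by 0.91 on the log2 scale (SE 0.28), just inside the threshold (adjusted p = 0.0481). In pair-fed *Apoe* KO mice it had 55056, 37867, 43218, 51260 and 34076 units, and in EtOH-fed KO mice 91726, 86786, 112487 and 113320. These groups did not overlap, and the rise of 1.20 (SE 0.15, adjusted p = 0.000173) was the largest of any enzyme in the KO mice. It was 1.08 with median-of-ratios scaling, 1.25 without EtOH-fed KO mouse 1 and 1.06 without the deeper libraries, and passed in all 3 (adjusted p from 0.000349 to 0.00057). The WT call was lost in 7 of the 9 fits that left out 1 mouse (adjusted p up to 0.135) and with a pseudocount of 0.1 (0.0512).

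*Bhmt2*, a paralog that uses S-methylmethionine as methyl donor (ENSMUSG00000042118, chr13:93655720-93674302, minus strand), sits next to *Bhmt*. Its 18 values lay between 5317 and 7204 units. The log2 fold change under ethanol was 0.11 in WT (95% interval −0.11 to 0.34) and 0.00 in KO mice (−0.20 to 0.20, and −0.043 without EtOH-fed KO mouse 1). In the same KO livers the interval of *Bhmt* ran from 0.87 to 1.53, and the difference between the neighbours was not itself tested.

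Transsulfuration starts with cystathionine beta-synthase, encoded by *Cbs* (ENSMUSG00000024039, chr17:31608894-31637238, minus strand). Pair-fed WT mice 1 to 4 had 5324, 7045, 5975 and 4245 units, and EtOH-fed WT mice 1 to 5 had 9394, 8472, 6502, 8200 and 8704 units. Only EtOH-fed mouse 3 fell inside the pair-fed range, and *Cbs* rose by 0.56 (SE 0.15, adjusted p = 0.0245). The call was lost in 3 of the 9 fits that left out 1 mouse (adjusted p up to 0.0724) and with mouse number as a block (0.54, adjusted p = 0.0534). The block fit also left out EtOH-fed WT mouse 5, whose number no pair-fed WT mouse has. The pair-fed *Apoe* KO values were 7966, 4742, 7626, 7243 and 5658 units, and the EtOH-fed KO values 7002, 7309, 5617 and 6694. The KO groups overlapped (0.02, 95% interval −0.29 to 0.34), and the sign turned with median-of-ratios scaling (−0.11) and without EtOH-fed KO mouse 1 (−0.0047).

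*Cth* encodes cystathionine gamma-lyase, which releases cysteine (ENSMUSG00000028179, chr3:157894248-157925077, minus strand). Pair-fed WT mice 1 to 4 had 4397, 4574, 4507 and 3122 units, and EtOH-fed WT mice 1 to 5 had 13595, 8511, 7388, 8641 and 8149 units. All 5 lay above every pair-fed WT mouse, and *Cth* was the enzyme with the largest change in WT mice (1.14, SE 0.17, adjusted p = 0.00109). In pair-fed *Apoe* KO mice it had 7788, 4030, 10078, 7882 and 4212 units, so that 3 of the 5 already lay within the EtOH-fed WT range. EtOH-fed KO mice had 8605, 10756, 6796 and 6644 units (log2 fold change 0.34, 95% interval −0.20 to 0.87, adjusted p = 0.359), and the value was 0.30 without mouse 1 (adjusted p = 0.473). An unnamed gene on the same strand, ENSMUSG00000104528, overlaps *Cth*.

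Among WT mice 5 of 9 enzymes were thus called higher and 0 lower in the EtOH-fed group, where 12.7% of all genes were called, 6.19% higher and 6.52% lower. Ranges did not overlap for 3 of them, *Mat1a*, *Gnmt* and *Cth*, all higher, where 7.43% of genes were higher and 6.96% lower without overlap. The median log2 fold change of the 9 was 0.56 against −0.0112 for all genes. In *Apoe* KO mice 3 of 9 were higher and 0 lower, where 23.2% of all genes were called, 16.3% higher and 6.92% lower. Ranges did not overlap for *Mat1a*, *Mat2a* and *Bhmt*, against 14% of genes higher and 6.01% lower without overlap, and the median of the 9 was 0.29 beside 0.126 for all genes. The share in KO mice was 3 of 9 under the deposited scaling and 2 of 9 under median-of-ratios scaling, *Bhmt* higher and *Pemt* lower.

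**Figure D2:**
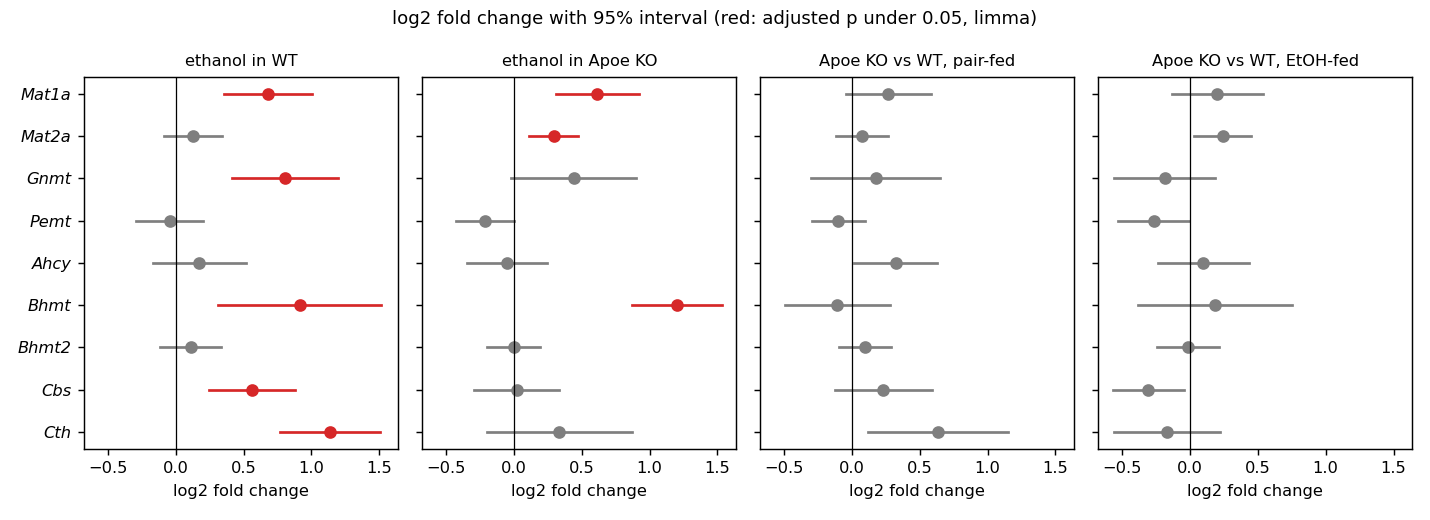
Log2 fold change (x axis) of each of the 9 enzymes with its 95% interval in 4 comparisons, red where the adjusted p is under 0.05. Ethanol gave 5 calls in WT and 3 in *Apoe* KO mice, all to the right of 0, and the genotype comparisons gave none.

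Depth was mixed with diet in the WT comparison, since 4 of 5 EtOH-fed WT libraries were among the deeper ones and 0 of 4 pair-fed WT libraries were, and the pair cannot be told apart there. EtOH-fed WT mouse 4 was the 1 remaining library with spaced values, and 1 mouse allows no test of the group. It was not matched in depth either. It had 1.31 units per read, against 5.75, 3.04, 1.11 and 1.68 in pair-fed WT mice 1 to 4. Its library was thus deeper than those of pair-fed mice 1, 2 and 4 and shallower than that of mouse 3. The log2 difference of EtOH-fed WT mouse 4 from the 4 pair-fed WT mice was 1.07 for *Cth*, 1.42 for *Bhmt*, 0.70 for *Mat1a*, 0.59 for *Gnmt* and 0.56 for *Cbs*. For *Bhmt* it was 1 of the pair of mice that stood far above the rest of the group.

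Markers of cells other than hepatocytes moved as well, and in bulk liver fewer cells of a type and less RNA per cell cannot be told apart. Of all genes 12.7% were called under ethanol in WT mice and 23.2% in KO mice. The marker counts were not tested against these shares. Under ethanol 0 of 7 hepatocyte markers passed in *Apoe* KO mice and 1 of 7 in WT mice, the tyrosine aminotransferase *Tat* (1.43, adjusted p = 0.00183). Their summed level was 2355205 to 3118036 units in pair-fed WT, 2092728 to 3568791 in EtOH-fed WT, 2751682 to 3665247 in pair-fed KO and 2154950 to 3035451 in EtOH-fed KO mice. Of 5 endothelial markers 4 rose in each genotype, and of 6 stellate cell markers 5 rose in KO mice and 0 in WT mice. Of 5 Kupffer cell markers 2 fell in WT and 2 rose in KO mice. Of 7 periportal markers 1 rose in each genotype. Of 8 pericentral markers 1 rose and 1 fell in WT mice, and 2 rose and 3 fell in KO mice. The part of these cells in the enzyme results was not tested.

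Genotype was compared next, first in pair-fed livers. The test passed 0 of 9 enzymes, where 1.73% of all genes were called, 0.87% higher and 0.864% lower. At an unadjusted p under 0.05 there were 2, *Cth* (log2 fold change 0.64, adjusted p = 0.163) and *Ahcy* (0.33, adjusted p = 0.222), both higher in *Apoe* KO mice. Ranges did not overlap for 0 of 9, where 4.01% of genes were higher and 3.02% lower without overlap. Of the 9 differences 7 were above 0, with a median of 0.18 beside −0.00474 for all genes. The pair-fed WT group held a low mouse. Mouse 4 was its lowest for *Mat1a*, *Mat2a*, *Gnmt*, *Bhmt2*, *Cbs*, *Cth*, *Ahcy* and *Pemt*, and its highest for *Bhmt*. Without mouse 4 the pair-fed difference of *Ahcy* was 0.20. The WT ethanol rise was then 0.62 for *Mat1a*, 0.64 for *Gnmt* and 0.43 for *Cbs*, while that of *Bhmt* was larger. How many of all genes had this order was not counted, and its cause was not tested.

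Within the pair-fed *Apoe* KO group, mice 2 and 5, the deeper libraries, lay below mice 1, 3 and 4 for 6 of the 9 enzymes, *Mat1a*, *Gnmt*, *Bhmt*, *Cbs*, *Cth* and *Ahcy*. Of all genes 12.2% had this order and 10.9% the opposite one. The gap was wide for *Cth*, *Gnmt* and *Cbs*, while the values of *Mat1a* and *Bhmt* ran on without a gap. The mean of mice 1, 3 and 4 over that of mice 2 and 5 was 2.08 for *Cth*, 1.83 for *Gnmt*, 1.46 for *Cbs*, 1.39 for *Bhmt*, 1.24 for *Ahcy* and 1.23 for *Mat1a*. *Apoe* itself was lowest in the same mice, with 11504 and 8586 units against 27229 to 108651. With the 3 shallower KO mice against the 4 WT mice, *Cth* was higher in KO by 1.05 (adjusted p = 0.00194), the 1 enzyme that then passed. This fit was added after the data were seen. Mice 2 and 5 were the lowest of the group for *Cth*, so leaving them out raised the KO mean by construction. The same holds for the other enzymes with this order, here and in the next fit. With all 5 KO mice the difference of *Cth* was 0.64 (adjusted p = 0.163, limma). With the deeper libraries out of both KO groups, which also removes EtOH-fed KO mouse 1, the ethanol difference was −0.12 for *Cth*, −0.042 for *Gnmt* and −0.23 for *Cbs*, while *Bhmt* (1.06), *Mat1a* (0.52) and *Mat2a* (0.37) still passed. The part of depth in this split was not tested.

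**Figure D3:**
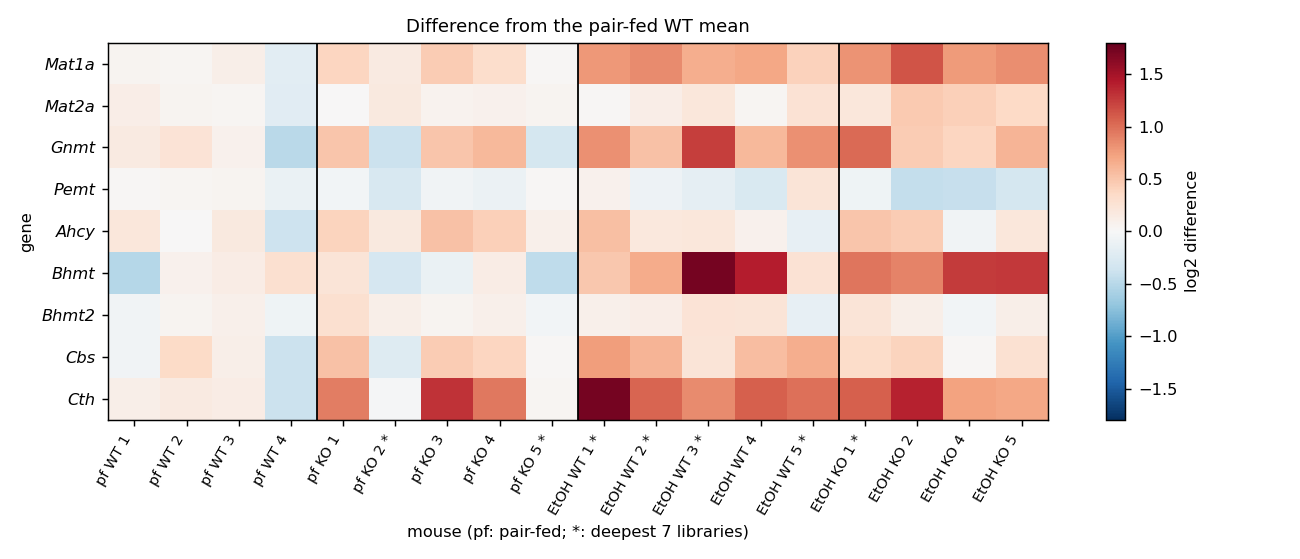
Log2 difference of each enzyme (rows) in each mouse (columns) from the pair-fed WT mean, red higher and blue lower, with an asterisk on the 7 deeper libraries. Pair-fed *Apoe* KO (pf KO) mice 2 and 5 lack the red of mice 1, 3 and 4 in *Gnmt*, *Cbs* and *Cth*, and the *Bhmt* and *Mat1a* rows are red across the EtOH-fed mice.

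In EtOH-fed livers 0 of 9 enzymes passed the test between *Apoe* KO and WT mice, where 4.69% of all genes were called, 4.25% higher and 0.445% lower. At an unadjusted p under 0.05 there were 3, *Mat2a* (0.24, adjusted p = 0.187), *Cbs* (−0.31, adjusted p = 0.182) and *Pemt* (−0.26, adjusted p = 0.259). Without EtOH-fed KO mouse 1 these were 0.30, −0.33 and −0.34 (adjusted p from 0.13 to 0.204). The intervals still allow sizeable differences, from −0.38 to 0.75 for *Bhmt* and from −0.56 to 0.22 for *Cth*. Ranges did not overlap for 0 of 9, where 7.12% of genes were higher and 1% lower without overlap, and leaving out any 1 of the 9 mice gave 0 calls each time. With mouse number as a block 1 enzyme passed, *Cbs*, lower in KO mice (−0.39, adjusted p = 0.0373). That fit kept only mouse numbers present in both groups, so it left out EtOH-fed WT mouse 3, the lowest of its group for *Cbs*. Without a block, leaving out 1 mouse gave −0.39 to −0.23 for *Cbs* (adjusted p from 0.071 to 0.431, limma). The median of the 9 was −0.0147 beside 0.107 for all genes. In the same comparison 5 of 5 Kupffer cell markers (4 without EtOH-fed KO mouse 1) and 4 of 5 macrophage markers were higher in KO mice, with summed levels of 10705 to 20653 against 4297 to 8212 units for the former, and 2 of 6 stellate cell markers were higher too. Their part in the enzyme values was not tested.

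Whether the ethanol difference depended on genotype was tested as an interaction over the 18 mice, and 0 of 9 enzymes passed, where 2.84% of all genes did, 2.6% higher and 0.239% lower. At an unadjusted p under 0.05 there were 2, *Cth* (−0.80, 95% interval −1.50 to −0.11, adjusted p = 0.22) and *Cbs* (−0.54, −0.998 to −0.08, adjusted p = 0.209), both with a smaller ethanol difference in KO mice. Without EtOH-fed KO mouse 1 the values were −0.84 and −0.57. The calls of *Gnmt*, *Cbs* and *Cth* in WT mice and not in KO mice are thus not shown to differ between genotypes.

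The ratio of *Bhmt* to *Cbs* sets the transcript of betaine-using methylation beside that of transsulfuration, again within a mouse. This ratio leaves out the folate route and does not measure the use of either route. On the log2 scale it was 3.08 ± 0.49 (SD, n = 4) in pair-fed WT, 3.43 ± 0.81 (n = 5) in EtOH-fed WT, 2.74 ± 0.20 (n = 5) in pair-fed *Apoe* KO and 3.92 ± 0.34 (n = 4) in EtOH-fed KO mice. In linear terms the 5 pair-fed KO mice lay between 5.67 and 7.98 and EtOH-fed KO mice 1, 2, 4 and 5 were at 13.1, 11.9, 20.02 and 16.9. These groups did not overlap, and the difference was 1.18 on the log2 scale (exact permutation p = 0.0159, the smallest possible, adjusted 0.0635), and 1.25 without EtOH-fed KO mouse 1 (adjusted 0.127). In WT mice the difference was 0.35 (exact permutation p = 0.429), with EtOH-fed mouse 3 at 23.9.

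**Figure D4:**
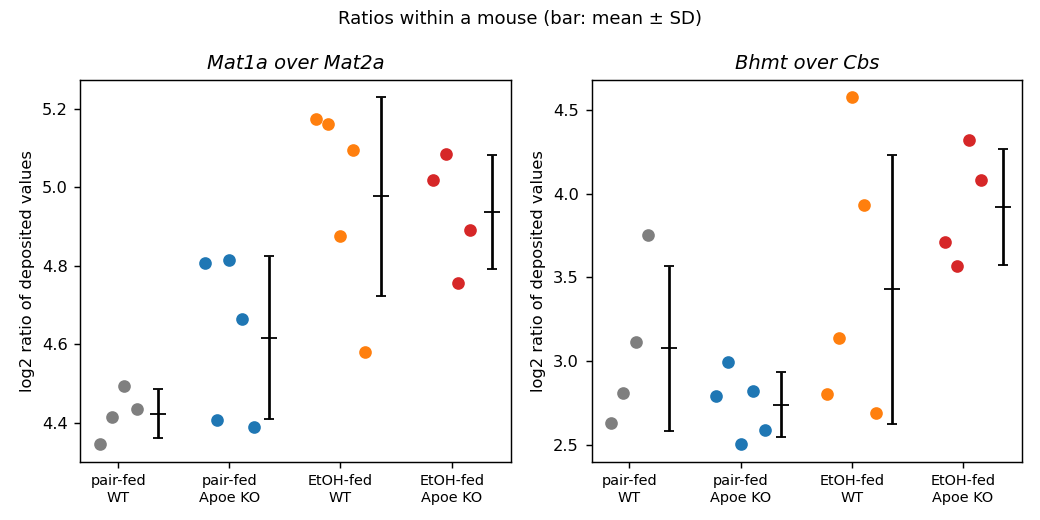
Log2 ratio of *Mat1a* to *Mat2a* (left) and of *Bhmt* to *Cbs* (right) in every mouse of the 4 groups, with the group mean ± SD; the axes do not start at 0. EtOH-fed WT mice lie above pair-fed WT mice on the left, and EtOH-fed *Apoe* KO mice above pair-fed *Apoe* KO mice on the right.

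The genes around the cycle were taken from 6 lists. Of all genes, ethanol gave calls for 12.7% in WT mice, 6.19% higher and 6.52% lower. In KO mice it gave calls for 23.2%, 16.3% higher and 6.92% lower. The counts of the lists were not tested against these shares, and several lie near them. Of 10 other genes of the cycle 0 rose and 1 fell in WT mice, and 1 rose and 0 fell in KO mice. *Mtr*, the folate-dependent methionine synthase, fell in WT mice (−0.60, adjusted p = 0.0184) and was at −0.16 in KO mice. *Mat2b*, the regulatory subunit paired with *Mat2a*, was at −0.10 in WT and 0.08 in KO mice.

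Of 21 folate genes 4 rose and 5 fell in WT mice, and 4 rose and 6 fell in KO mice. The mitochondrial *Mthfd2* rose by 1.84 in WT (adjusted p = 0.00158) and 2.07 in KO mice (0.00128), and the glycine decarboxylase *Gldc* by 1.20 and 0.97 (0.0027 and 0.000394). The serine hydroxymethyltransferases fell in both genotypes, *Shmt1* by 0.33 and 0.52 (0.0442 and 0.000754) and *Shmt2* by 0.39 and 0.33 (0.0172 and 0.0161). *Mthfd1* fell in KO mice (−0.46, adjusted p = 0.011) and was at −0.20 in WT mice.

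Of 14 genes of choline, betaine and sarcosine 1 rose and 1 fell in WT mice, and 2 rose and 3 fell in KO mice. Choline kinase *Chka* rose in both (2.14 and 1.55, adjusted p = 0.000253 and 0.000131) and the sarcosine oxidase *Pipox* fell in both (−0.37 and −0.50, 0.024 and 0.00124). Of enzymes on the path before and after *Bhmt*, the following did not pass. *Chdh*, which starts the conversion of choline to betaine, was at 0.20 and −0.25, *Dmgdh* at 0.17 and 0.03, and *Sardh* at 0.05 and −0.24. In this list the choline transporter-like *Slc44a2* gave the only interaction call (1.03, adjusted p = 0.0483).

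Of 12 genes of cysteine, taurine and glutathione 4 rose and 1 fell in WT mice, and 4 rose and 3 fell in KO mice. Glutathione synthetase *Gss* rose by 0.63 and 0.50 (adjusted p = 0.00142 and 0.00161). *Gclc*, the catalytic subunit of glutamate-cysteine ligase, rose in WT mice (0.97, 0.00441) and was at 0.35 in KO mice (0.0742), or 0.43 without EtOH-fed KO mouse 1 (adjusted p = 0.0417). *Gclc* was also higher in pair-fed KO than pair-fed WT mice (0.65, adjusted p = 0.033). Its modifier *Gclm* was at 0.09 in WT and fell by 0.29 in KO mice (0.0288; −0.26 and 0.0683 without mouse 1), and *Cdo1*, cysteine dioxygenase, was at −0.09 and 0.27 without passing.

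Of 14 polyamine and salvage genes 3 rose and 1 fell in WT mice, and 5 rose and 3 fell in KO mice. Ornithine decarboxylase *Odc1* rose by 0.79 and 0.47 (adjusted p = 0.00481 and 0.011), spermine oxidase *Smox* by 1.21 and 1.62 (0.000552 and 0.000808), and *Paox* fell by 1.24 and 1.08 (9.06e-05 and 0.000212). Of 16 methyltransferases 1 rose and 3 fell in WT mice, and 3 rose and 5 fell in KO mice. Nicotinamide methyltransferase *Nnmt* rose by 1.02 and 0.80 (0.0149 and 0.00407). *Gamt*, the creatine-making methyltransferase, fell by 0.75 and 0.56 (0.000927 and 0.00588), and was also lower in pair-fed KO than pair-fed WT mice (−0.44, adjusted p = 0.0324). Among EtOH-fed mice the DNA methyltransferase *Dnmt3a* was higher (0.70, adjusted p = 0.00363) and *Inmt* lower (−0.42, adjusted p = 0.0206) in KO than in WT. In that comparison *Mthfd1l* (1.03, adjusted p = 0.0414) and *Sat1* (0.57, adjusted p = 0.00899) were higher too, and without EtOH-fed KO mouse 1 *Mthfd2* passed as well (1.24, adjusted p = 0.023).

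**Figure D5:**
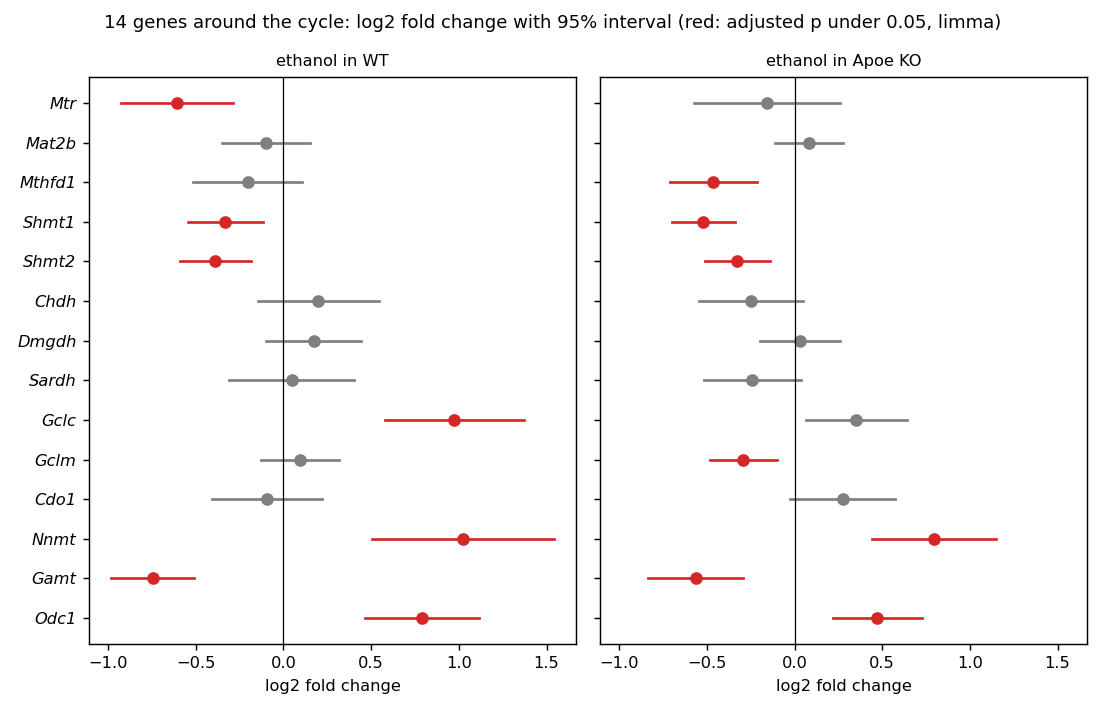
Log2 fold change under ethanol (x axis) with 95% interval for 14 genes around the cycle in WT (left) and *Apoe* KO mice (right), red where the adjusted p is under 0.05. *Nnmt* and *Odc1* lie to the right of 0 and *Shmt1*, *Shmt2* and *Gamt* to the left in both genotypes.

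Similarity of pattern was described by Pearson r of log2(value + 1) over the 18 mice, which share diet groups and scaling, so that r is no test. Among the 9 enzymes *Cbs* and *Cth* were the closest pair (r = 0.86, and 0.82 for deviations from group means). *Mat1a* and *Cth* followed (0.83 and 0.76). *Bhmt* and *Cbs* had r = 0.28, and −0.16 for deviations from group means. *Pemt* ran against *Bhmt* (−0.53 and −0.55). Of all genes, *Mat1a* was most like *Ctsl* and *Nudt4* (both 0.95), *Gnmt* most like *Cyp2c29* (0.92) and *Abcc4* (0.90), and *Cth* was close to *Sdc1* (0.89). *Bhmt* was most like *Gstm4* and *Ttll11* (both 0.90), and *Mat2a* most like *Hccs* (0.89) and *Atp6v1c1* (0.88). *Bhmt2* had the weakest best match, *Tmem86b* (0.74), followed by *Suox* (0.73). *Cbs* was most like *Cth* itself and then *Slc25a39* (0.79). *Pemt* was most like the unnamed ENSMUSG00000047905 (0.87) and *Ogfod3* (0.84), and *Ahcy*, after *Ahcyl*, like *Ei24* (0.88).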

How the data were processed

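Liver RNA-seq of 18 mice in 4 groups was analysed, each mouse 1 replicate grouped by its label. The authors selected polyadenylated RNA, extracted with TRIzol, trimmed reads with Trimmomatic, aligned with HISAT2, counted with featureCounts and used DESeq2; the submitters' processing notes name GRCm38. Versions are not given in the sources used here. The table the authors deposited holds a signal per gene and mouse: read counts brought to almost the same sum in each mouse, as whole numbers, by a step that is not described. Its columns of mean signal, fold change, error, p-values and ranks are the authors' own DESeq2 results for 1 comparison and were not used. Of 15247 lines, 195 repeated a gene with identical values, and 15052 genes were kept. No value column was left out.

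log2(value + 1) was tested with limma 3.58.1 (R 4.3.3), with an intensity trend, Benjamini-Hochberg adjustment over 15052 genes and a call at adjusted p under 0.05. Each fit held only the mice of its own groups, and the interaction held all 18. Fold changes are on the log2(value + 1) scale. Ratios were compared by exact permutation (scipy 1.17.1). Figures used matplotlib 3.10.9. The test was checked on simulated data. Depth was read from the spacing of low values. Gene positions and exon lengths are from GENCODE M21, promoters from RefSeq (GRCm38.p6). Alternatives were another pseudocount (0.1), median-of-ratios scaling, mouse number as a block, dropping genes under 10 in any mouse, quality weights, 1 fit over the 4 groups, and leaving out each mouse. A fit without the 7 deeper libraries was added after the spacing was seen.

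The 9 genes and the gene lists were chosen with earlier results of these data known. Genes named are the 9, up to 3 called genes with the lowest adjusted p of a list in a comparison, 15 set genes around the cycle, the 2 genes most like each enzyme, *Apoe*, and markers beside a result; a few genes this rule would name are not reported here. Lists of cholangiocyte, lymphocyte and neutrophil markers were counted too; in them *Krt19* alone passed (−1.86 in WT and 1.32 in KO mice under ethanol, 2.05 between EtOH-fed genotypes, 3.18 as interaction). Mice are separate animals, but cage and litter are not given, and the labels call all female where the study's methods allow either sex.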

Additional observations from a re-analysis of the deposited data

Results flagged for a closer look

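In 48 groups of 4 or 5 mice (12 measures in 4 groups), 4 held a mouse whose gap to its nearest neighbour took up an unusually large share of the group's range, and chance alone gives about 1 in 20 groups. For *Cth*, pair-fed WT mouse 4 was lowest (3122 units), its gap 0.897 of the range. For *Cth* again, EtOH-fed WT mouse 1 was highest (13595 units), with 0.743 of the range. For *Pemt*, pair-fed WT mouse 4 was lowest (11034 units), with 0.837 of the range. For *Apoe*, EtOH-fed KO mouse 1 was lowest (12041 units), with 0.855 of the range. No cause was tested.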

How the results depend on the processing

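Of 792 alternative values for single enzymes, 741 kept their direction and side of the threshold, 20 lost a call, 5 gained one and 26 turned sign. The main fit held only 5 calls for ethanol in WT and 3 in KO mice. Most of the 741 were therefore values that stayed uncalled, and only those calls could be lost. The cause of the changes was not tested. Leaving out 1 mouse at a time gave 0 enzymes between genotypes and for the interaction, 3 to 5 for ethanol in WT and 2 to 4 in KO mice, and genes called ran over 327 to 620 (EtOH-fed genotypes; 620 without EtOH-fed KO mouse 1), 73 to 670 (pair-fed; 73 without WT mouse 2), 1186 to 1904 (ethanol in WT), 2637 to 3320 (ethanol in KO) and 167 to 561 (interaction; 167 without pair-fed WT mouse 4). Signs turned within −0.081 to 0.034 (*Bhmt2*, EtOH-fed genotypes), −0.11 to 0.011 (*Pemt*, ethanol in WT), and for ethanol in KO −0.043 to 0.049 (*Bhmt2*), −0.093 to 0.10 (*Cbs*) and −0.12 to 0.063 (*Ahcy*), and for the *Mat1a* to *Mat2a* ratio in EtOH-fed genotypes within −0.14 to 0.021. *Cbs* in WT passed in 6 of 9 such fits and *Mat2a* in KO in 6 of 9. The block fits of 2 groups also dropped mice whose number was missing from the other group. With mouse number as a replicate block, 1 enzyme passed between EtOH-fed genotypes (*Cbs*, −0.39, adjusted p = 0.0373, limma) with 1083 genes, 392 genes passed between pair-fed genotypes, *Bhmt2* was 0.020 between EtOH-fed genotypes and −0.010 for ethanol in KO, and *Cbs* in WT was lost (0.54, adjusted p = 0.0534). Same-numbered mice of the genotypes correlated in their deviations at 0.19, −0.02, 0.23 and 0.14 (EtOH-fed mice 1, 2, 4 and 5, mice 1, 4 and 5 best with their own number) and at −0.05 to 0.07 (pair-fed). As 1 EtOH-fed pair and all pair-fed ones stayed under 0.1 and the labels name nothing that a number stands for, pairing was not taken as given. Median-of-ratios scaling gave *Ahcy* −0.027 between EtOH-fed genotypes, *Bhmt2* −0.13 and *Cbs* −0.11 for ethanol in KO, and split gene calls into 1646 higher and 1617 lower (ethanol in KO; 2446 and 1042 before), 379 and 127 (EtOH-fed genotypes; 639 and 67) and 294 and 84 (interaction; 392 and 36). Quality weights gave 456 genes between pair-fed genotypes. Without the 7 deeper libraries, chosen after seeing the data, enzymes called were 1 (pair-fed genotypes) and 2 (ethanol in WT, where 1 EtOH-fed mouse is left and assumed to vary like the others), genes called were 20 (EtOH-fed genotypes), 494 (pair-fed), 456 (ethanol in WT) and 21 (interaction), and signs turned for *Bhmt* (−0.28 EtOH-fed, 0.081 pair-fed, −0.36 interaction) and, for ethanol in KO, *Gnmt* (−0.042), *Bhmt2* (−0.091), *Cbs* (−0.23) and *Cth* (−0.12). Without the deeper libraries, the EtOH-fed genotype and interaction fits also held EtOH-fed WT mouse 4 alone in its group. No conclusion is drawn from their counts. The *Bhmt* values of −0.28 and −0.36 likewise rest on that mouse for EtOH-fed WT, and it had 125457 units. Groups of 4 or 5 mice of uneven depth limit how small a difference can be seen.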
